A study of Homo sapiens with 4 samples.

Results

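The insulin-like growth factor (IGF) receptors, their soluble binding proteins and the IGF2 mRNA-binding proteins were examined as a group of 10 genes: IGF1R, INSR, IGF2R, IGFBP2, IGFBP3, IGFBP4, IGFBP5, IGFBP6, IGF2BP1 and IGF2BP2. Members were taken by symbol from the platform annotation of the value table, which placed them on 11 of the 21214 transcript clusters that carry a gene symbol. A transcript cluster is the set of probes that the array summarises into 1 value. IGF1R had 2 clusters of its own, and IGFBP6 was found only on a cluster annotated to C12orf57 as well, so that its value cannot be given to either gene alone. The other 8 genes had 1 cluster each. The values came from OVCAR-3, an established cell line of ovarian epithelial cancer, on 4 one-colour Affymetrix arrays. Cells transfected with a vector lacking H1.3 gave 2 arrays, called vector controls here, and cells labelled as overexpressing the human linker histone H1.3 gave the other 2. Replicates are called biological, but separate transfections or clones are not stated, so p-values reflect only how far these arrays scatter, and that scatter may be technical.

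IGF1R and INSR are receptor tyrosine kinases that bind IGFs and insulin and signal through insulin receptor substrates to the PI3K-AKT and RAS-MAPK routes. IGF2R has no kinase: it takes IGF2 from the cell surface to lysosomes and sorts lysosomal enzymes that carry mannose 6-phosphate. The IGFBPs bind IGFs outside the cell and are opened by proteases, whereas IGF2BPs bind mRNAs, IGF2 and H19 RNA among them, inside the cell. In ovarian carcinoma the axis is known as a growth and survival route.

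The labels were checked on H1-3, which encodes H1.3. It gave 8.65 and 7.88 (log2) with vector alone and 7.47 and 7.69 under the H1.3 label, which differ by -0.685 with adjusted p = 0.319, so the level ran against the label without passing the test. Directions below therefore refer to the arrays labelled H1.3. Ovarian epithelial markers were at or above the median level of the named clusters (6.84) for 17 of 18 genes, against 1 of 9 fibroblast, 0 of 8 leukocyte and 0 of 7 endothelial markers. Summed over the list, the ovarian markers ran from 184.47 to 186.59 in the vector controls and from 181.12 to 181.34 in the H1.3-labelled arrays. The median difference over these 18 genes was -0.075. MECOM at -1.575 and FOLR1 at -1.26 passed the test, both lower, although no cluster of the whole table was called once any 1 array was left out. Whether these lower markers have a part in the results below was not tested. The sums ran from 45.29 to 46.75 and 45.41 to 46.42 for fibroblast, 37.61 to 38.32 and 38.0 to 39.32 for leukocyte, and 35.66 to 35.76 and 35.25 to 35.83 for endothelial markers.

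Promoters of 7 members are shown, the receptors and the binding proteins with a cluster of their own, so that members with and without separated groups can be set side by side. The RefSeq promoter table (GRCh38.p14) held an entry for 9 of the 10 members, and IGF2BP1 had none. Each line gives the 250 bases before the transcription start, 5′ to 3′ on the gene's strand. Capitals mark GC boxes (GGGCGG, or CCGCCC for a match on the other strand) and TATA boxes (TATAAA, or TTTATA on the other strand). Matches may overlap. IGFBP2 has 3 starts in the table, and the one whose window holds the most CpG dinucleotides is printed.
IGF1R, chr15:98648289-98648538, plus strand: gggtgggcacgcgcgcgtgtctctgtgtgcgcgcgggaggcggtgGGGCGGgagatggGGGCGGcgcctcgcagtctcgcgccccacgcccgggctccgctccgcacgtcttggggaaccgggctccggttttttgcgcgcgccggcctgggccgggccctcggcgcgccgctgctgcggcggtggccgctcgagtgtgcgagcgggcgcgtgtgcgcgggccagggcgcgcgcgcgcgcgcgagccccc
INSR, chr19:7294415-7294664, minus strand: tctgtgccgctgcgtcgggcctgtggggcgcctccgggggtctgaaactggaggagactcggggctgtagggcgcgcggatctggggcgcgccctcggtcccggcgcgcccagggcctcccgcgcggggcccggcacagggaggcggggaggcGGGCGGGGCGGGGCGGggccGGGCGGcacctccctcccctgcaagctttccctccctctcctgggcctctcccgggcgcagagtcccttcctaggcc
IGF2R, chr6:159968832-159969081, plus strand: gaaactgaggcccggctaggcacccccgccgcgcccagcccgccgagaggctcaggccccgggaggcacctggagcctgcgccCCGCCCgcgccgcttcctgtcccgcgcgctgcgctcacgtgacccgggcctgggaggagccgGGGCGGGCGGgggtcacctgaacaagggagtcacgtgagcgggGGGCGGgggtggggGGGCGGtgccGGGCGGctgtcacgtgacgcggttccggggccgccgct
IGFBP2, chr2:216633170-216633419, plus strand: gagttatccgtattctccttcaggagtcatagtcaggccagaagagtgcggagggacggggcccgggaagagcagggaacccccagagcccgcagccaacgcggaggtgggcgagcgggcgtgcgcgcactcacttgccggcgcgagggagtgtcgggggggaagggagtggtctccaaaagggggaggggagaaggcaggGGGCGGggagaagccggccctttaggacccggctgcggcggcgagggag
IGFBP3, chr7:45921273-45921522, minus strand: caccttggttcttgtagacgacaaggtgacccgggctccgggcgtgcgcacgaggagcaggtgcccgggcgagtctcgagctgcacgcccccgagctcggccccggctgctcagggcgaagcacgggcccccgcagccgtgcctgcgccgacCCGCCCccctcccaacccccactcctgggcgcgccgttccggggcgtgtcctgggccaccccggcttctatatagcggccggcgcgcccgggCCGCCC
IGFBP4, chr17:40443200-40443449, plus strand: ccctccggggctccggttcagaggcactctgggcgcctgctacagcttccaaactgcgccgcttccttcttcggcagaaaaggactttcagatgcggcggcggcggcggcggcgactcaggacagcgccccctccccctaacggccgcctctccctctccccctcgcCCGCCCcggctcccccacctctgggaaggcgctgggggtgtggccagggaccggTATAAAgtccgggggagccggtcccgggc
IGFBP5, chr2:216695550-216695799, minus strand: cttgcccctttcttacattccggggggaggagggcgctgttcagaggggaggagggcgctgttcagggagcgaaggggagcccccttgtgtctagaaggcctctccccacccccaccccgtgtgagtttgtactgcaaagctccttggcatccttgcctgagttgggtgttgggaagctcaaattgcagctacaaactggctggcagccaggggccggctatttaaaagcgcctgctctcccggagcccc

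A GC box was present in 42.6% and a TATA box in 10.7% of all 35116 promoter windows of this length. The window of IGF1R held 2 GC boxes, that of INSR 4, of which 3 overlap in one run, and that of IGF2R 6. The windows of IGFBP2, IGFBP3 and IGFBP4 held 1, 2 and 1, and that of IGFBP5 held 0. Of the members not printed, IGFBP6 held 1, and IGF2BP2 held 7 at the start with more CpG dinucleotides and 0 at the other. Among the windows printed, a TATA box was found only before IGFBP4, where it began 29 bases before the start. CpG dinucleotides numbered 48 in IGF1R, 28 in INSR, 33 in IGF2R, 22 in IGFBP2, 32 in IGFBP3 and 24 in IGFBP4, against 8 in IGFBP5 and a median of 11 over all windows. They numbered 9 in IGFBP6, and 32 and 2 at the starts of IGF2BP2. A window with a GC box and more CpG dinucleotides than the median was thus found for IGF1R, INSR, IGF2R, IGFBP2, IGFBP3, IGFBP4 and IGF2BP2. Of these genes, IGF1R, INSR, IGFBP2 and IGFBP3 had groups that did not overlap on the arrays. The groups of IGF2R, IGFBP4 and IGF2BP2 overlapped. Over all clusters, 40.6% had groups that did not overlap. The share of all windows that meet both promoter conditions was not computed. Whether the type of promoter has a part in the differences was not tested. Another 4 motifs were searched on both strands and are not in capitals. They were CCAAT, present in 32.0% of all windows, the FOXO motif GTAAACA in 2.98%, the E box CACGTG in 6.34% and CAAAACA in 4.30%. CACGTG occurred 3 times in the IGF2R window, and GTAAACA once in the IGFBP6 window, 186 bases before the start. CCAAT occurred in 1 window each of IGFBP2 and IGF2BP2, at starts that are not printed, and a TATA box lay in the same IGF2BP2 window. CAAAACA was found in 0 member windows. A match of letters is a description of the window and not a binding site.

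Both clusters of IGF1R, the main IGF signalling receptor, were lower in both H1.3-labelled arrays than in either vector control. The cluster of higher mean (7986359) had log2 levels of 6.01 and 6.22 in the vector controls and 5.64 and 5.53 in the H1.3-labelled arrays. Its difference was -0.53 ± 0.13 (SE), or 1.44-fold lower, with a 95% interval from -0.83 to -0.23 and adjusted p = 0.146. The second cluster (7986383) measured 5.89 and 6.06 against 5.19 and 5.33, differing by -0.715 ± 0.13 (SE), 1.64-fold lower, adjusted p = 0.0798. This was the smallest adjusted p among the members and did not pass the threshold of 0.05. The groups were separated by 0.37 on the first cluster and by 0.56 on the second, more than the 0.11 to 0.21 between replicates of a group. All 4 arrays lay below the median level of the named clusters on both.

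INSR, the insulin receptor, had log2 levels of 7.03 and 6.82 in the vector controls and 6.44 and 6.50 in the H1.3-labelled arrays. Both H1.3-labelled arrays were thus below both vector controls. The difference was -0.455 ± 0.13 (SE), or 1.37-fold lower, with a 95% interval from -0.75 to -0.16 and adjusted p = 0.198. IGF2R showed another pattern: its levels were 8.39 and 8.83 in the vector controls and 8.44 and 8.86 in the H1.3-labelled arrays. The groups overlapped almost wholly, with a spread of 0.44 and 0.42 between replicates. The difference was 0.04 ± 0.20 (SE), with a 95% interval from -0.42 to 0.50 and adjusted p = 0.967. Whether IGF2R and the kinase receptors differ in response was not tested.

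**Figure D1:**
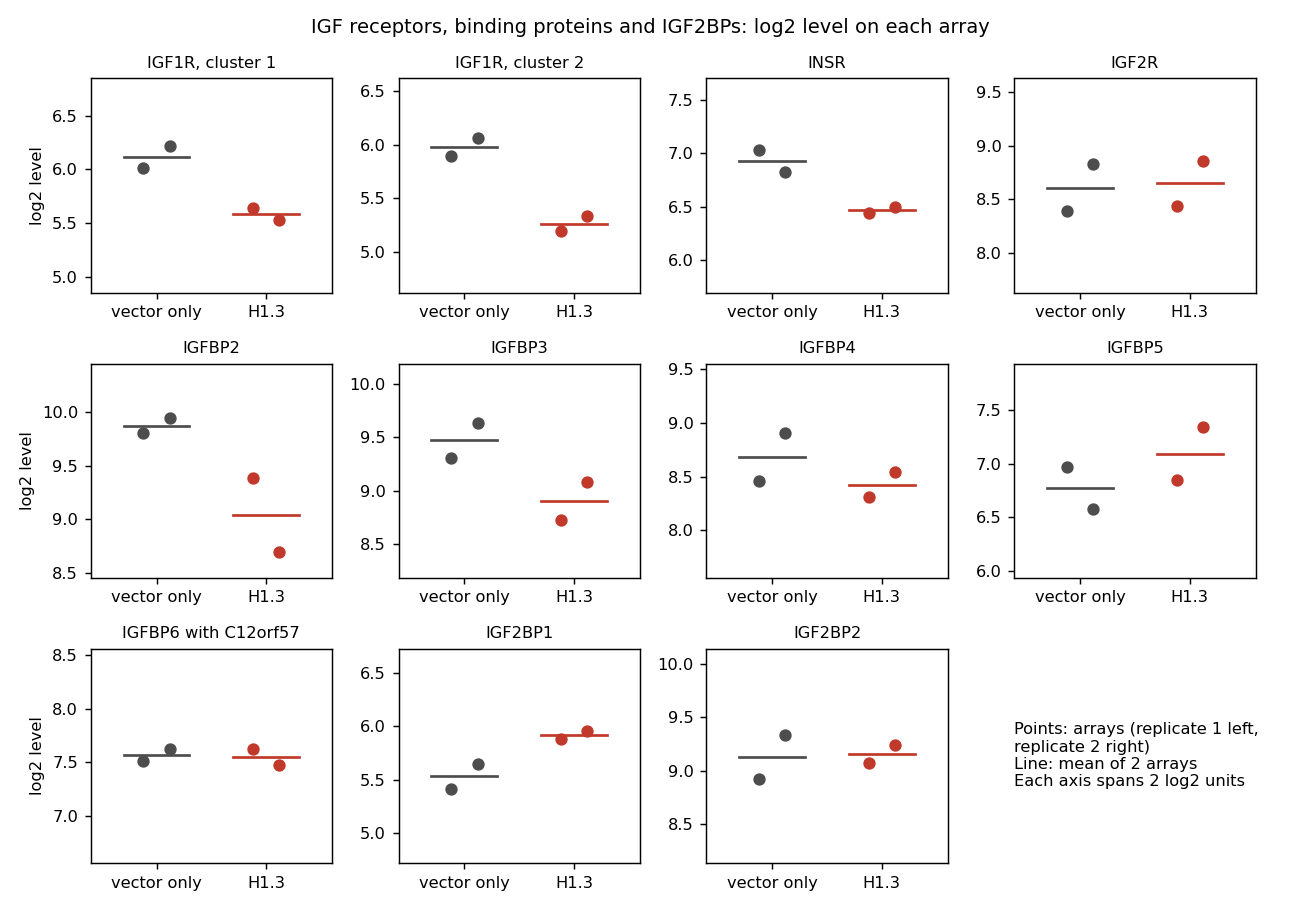
Log2 level (vertical axis, 2 log2 units in every panel) of each of the 11 member clusters on the 4 arrays, vector only in grey and H1.3-labelled arrays in red, with lines at the means of 2 arrays. Both IGF1R clusters, INSR, IGFBP2 and IGFBP3 have both red points below both grey points, and IGF2BP1 has both above.

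IGFBP2 is a secreted carrier that also binds integrins. The vector controls gave log2 levels of 9.80 and 9.94, and the H1.3-labelled arrays 9.38 and 8.69. The vector controls lay 0.14 apart and the H1.3-labelled arrays 0.69 apart, and the groups did not overlap. The difference was -0.835 ± 0.22 (SE), or 1.78-fold lower, with a 95% interval from -1.35 to -0.32 and adjusted p = 0.170. An ordinary linear model, which uses only the cluster's own spread, gave an unadjusted p of 0.141. The difference was -0.49 without H1.3 replicate 2 and -1.18 without H1.3 replicate 1, so its size depended on which of these arrays was kept. With all 4 arrays its difference was larger than that of IGFBP3, but without H1.3 replicate 2 that of IGFBP3 was the larger, at -0.74.

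IGFBP3, the main IGF carrier of serum, measured 9.31 and 9.63 in the vector controls and 8.73 and 9.08 in the H1.3-labelled arrays. Both H1.3-labelled arrays were lower, by at least 0.23, which is less than the 0.32 and 0.35 between replicates. The difference was -0.565 ± 0.17 (SE), or 1.48-fold lower, with a 95% interval from -0.96 to -0.17 and adjusted p = 0.228. The ordinary linear model gave an unadjusted p of 0.140. IGFBP4, which restrains IGF action until the protease PAPPA cuts it, measured 8.46 and 8.91 against 8.31 and 8.54. The lower vector control lay below the higher H1.3-labelled array, so the groups overlapped. Its difference was -0.26 ± 0.17 (SE), with a 95% interval from -0.67 to 0.15 and adjusted p = 0.651, and it was only -0.035 without vector-only replicate 2.

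IGFBP5, a matrix-binding IGF carrier, measured 6.97 and 6.58 in the vector controls and 6.85 and 7.34 in the H1.3-labelled arrays. The highest value came from H1.3 replicate 2 and the lowest from vector-only replicate 2, with the other arrays between them. The difference was 0.32 ± 0.20 (SE), with a 95% interval from -0.15 to 0.79 and adjusted p = 0.624. It was 0.075 without H1.3 replicate 2 and 0.565 without H1.3 replicate 1. The array that was highest for IGFBP5 was lowest for IGFBP2, its neighbour on chromosome 2. Whether these neighbours differ from each other in response was not tested.

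The cluster shared by IGFBP6, a carrier that prefers IGF2, and C12orf57 measured 7.51 and 7.63 in the vector controls and 7.63 and 7.48 in the H1.3-labelled arrays. Its difference was -0.015 ± 0.12 (SE), with a 95% interval from -0.30 to 0.27. The cluster annotated to C12orf57 alone differed by -0.265, with an adjusted p of 0.545. Of the 4 binding proteins with a cluster of their own, the groups were apart for IGFBP2 and IGFBP3 and overlapped for IGFBP4 and IGFBP5. Over all clusters the groups were apart for 40.6%.

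IGF2BP1, an oncofetal mRNA-binding protein, was the one member that was higher in both H1.3-labelled arrays than in either vector control. The vector controls gave log2 levels of 5.41 and 5.65 and the H1.3-labelled arrays 5.88 and 5.95, below the median level of the named clusters on all 4 arrays. The difference was 0.385 ± 0.13 (SE), or 1.31-fold higher, with a 95% interval from 0.08 to 0.69 and adjusted p = 0.301. IGF2BP2, a paralogue with wide expression in tumours, measured 8.92 and 9.33 against 9.07 and 9.24. Both H1.3-labelled arrays lay between the vector controls. The difference was 0.03 ± 0.16 (SE), with a 95% interval from -0.35 to 0.41 and adjusted p = 0.973.

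**Figure D2:**
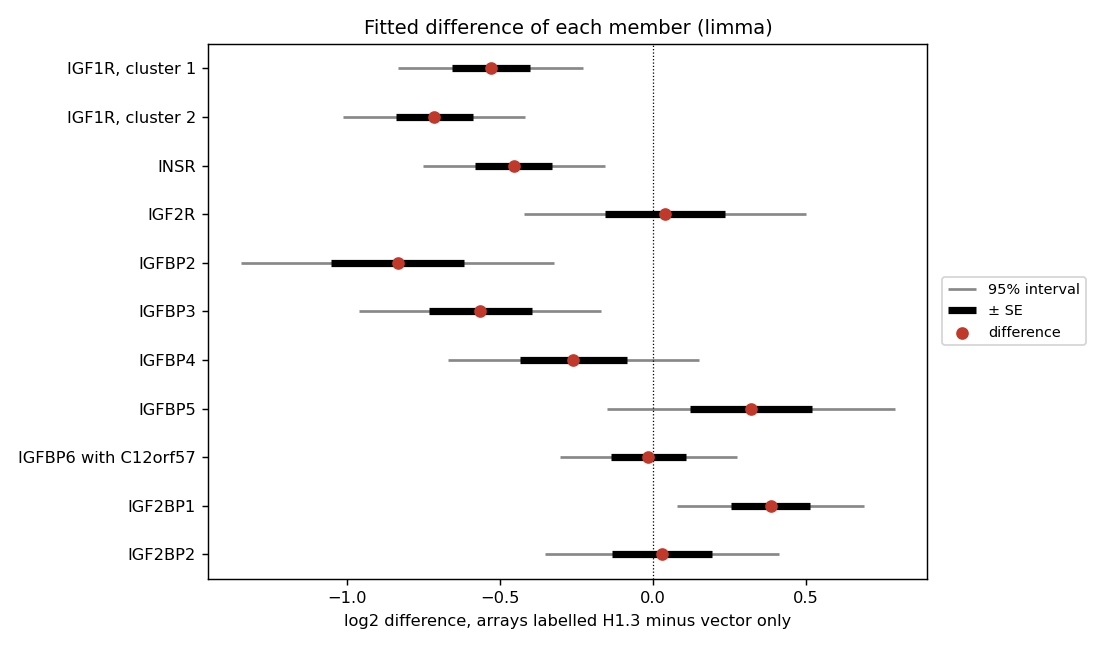
Fitted log2 difference (horizontal axis, H1.3-labelled arrays minus vector only) of each member cluster, with its SE as a thick bar and its 95% interval as a thin bar. Both bars use limma's moderated variances. The intervals of both IGF1R clusters, INSR, IGFBP2, IGFBP3 and IGF2BP1 exclude 0 before adjustment for the 21214 clusters tested, and no member passed after it.

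None of the 10 members passed limma's test over all clusters at an adjusted p under 0.05, a threshold that 0.504% of the 21214 clusters met. At an unadjusted p under 0.05, 6 of the 11 member clusters, standing for 5 genes, were below the threshold, against 11.5% of all clusters. Of these, 5 clusters were lower and 1 was higher, against backgrounds of 6.34% and 5.21%. An ordinary linear model without moderated variances put 2 member clusters, both of IGF1R, under an unadjusted p of 0.05, against 7.75% of clusters, and called 0 after adjustment. The groups did not overlap for 6 member clusters, against 40.6% of all clusters: 5 were lower and 1 higher, against 19.4% and 21.2%. At an adjusted p under 0.10, 1 member cluster was called, the second of IGF1R, against 1.47% of clusters. When at least a 1.5-fold difference was required beside an unadjusted p under 0.05, 2 member clusters were called, IGFBP2 and the second of IGF1R, against 3.22%. These members were proposed with results of these arrays known, so their counts are a description.

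**Figure D3:**
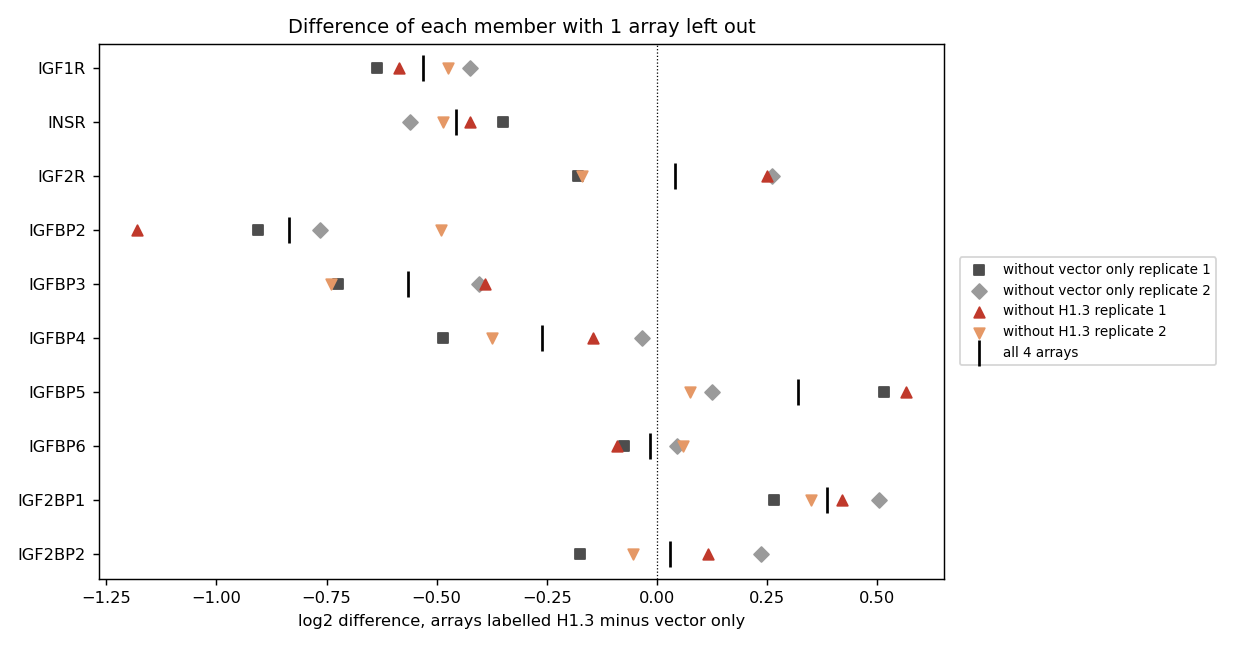
Log2 difference (horizontal axis, H1.3-labelled arrays minus vector only) of each member on all 4 arrays (black bar) and with 1 array left out (symbols). IGF1R, INSR, IGFBP2, IGFBP3 and IGFBP4 stay below 0 and IGFBP5 and IGF2BP1 above it in all 4 cases, whereas IGF2R, the IGFBP6 cluster and IGF2BP2 lie on both sides.

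Each member was also set beside the genes next to it in the genome. For each member, the 5 measured genes on either side in RefSeq order were taken. Over all 18417 genes on clusters of their own, 9800 had a positive difference. For INSR on chromosome 19, 9 of the 10 neighbours had a positive difference, with a median of 0.09 and a range from -0.035 to 0.255, against -0.455 for INSR. For IGF1R on chromosome 15 the neighbours had a median of 0.04 and ran from -0.215 to 0.29, against -0.53. For IGFBP2 the neighbours ran from -0.34 to 0.33 around a median of 0.01, against -0.835. None of the neighbours of these 3 genes passed the test.

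IGFBP3 lies next to IGFBP1 on chromosome 7, and the neighbour's difference had the other sign without passing the test. IGFBP1, a carrier controlled by insulin in liver, measured 6.34 and 6.52 against 6.66 and 6.39, a difference of 0.095. The 10 nearest neighbours of IGFBP3 ran from -0.28 to 0.155 with a median of 0.05. When only neighbours at or above the median level of the named clusters were taken, they reached further along the chromosome, had a median of -0.13 and ran from -0.695 to 0.095, a range that includes the -0.565 of IGFBP3. The lowest of them was GRB10, which encodes an adaptor that binds and restrains both INSR and IGF1R. For IGF2BP1 on chromosome 17, 8 of 10 neighbours were also positive, with a median of 0.145 and a highest value of 0.245, against 0.385. In all, 6 of the 10 members lay outside the range of their 10 neighbours, and 5 did among neighbours at or above the median level. The share of all genes that lie outside such a range was not computed, so these counts only describe the members.

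**Figure D4:**
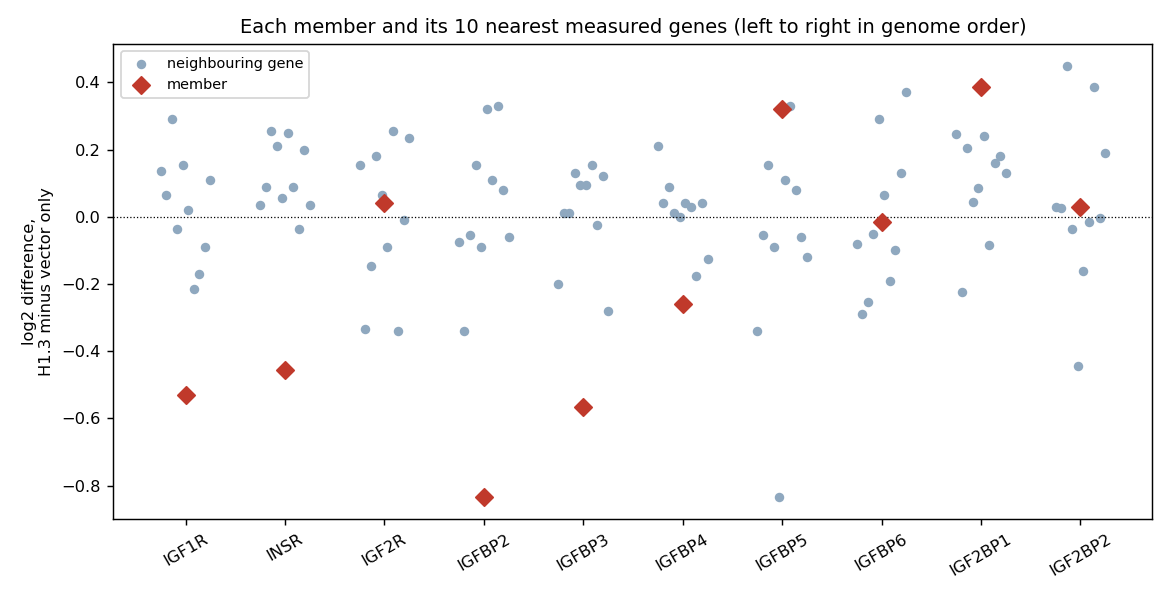
Log2 difference (vertical axis, H1.3-labelled arrays minus vector only) of each member (red diamond) and of the 5 measured genes on either side of it in genome order (blue points). IGF1R, INSR, IGFBP2, IGFBP3 and IGFBP4 lie below all their neighbours and IGF2BP1 lies above all of its own.

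Of the ligands and remaining carriers of the axis, 0 passed the test on clusters of their own. IGF1 measured 5.57 and 5.69 against 5.26 and 5.58, differing by -0.21 (adjusted p = 0.659). The cluster shared by IGF2, INS and INS-IGF2 measured 6.48 and 6.51 against 6.32 and 6.21, differing by -0.23 ± 0.12 (SE), adjusted p = 0.529. Its groups did not overlap. H19, the gene of an imprinted RNA next to IGF2, shares its cluster with RPS12, and that cluster measured 10.96 and 10.09 against 7.34 and 7.35. It passed the test with all 4 arrays and was lower, by -3.18 ± 0.26 (SE) with adjusted p = 0.00956. Like every other call of the whole table, this call was lost when any 1 array was left out, so those fits cannot judge this cluster. Its value cannot be given to either gene alone. IGF2BP3, the third IGF2 mRNA-binding protein, measured 9.41 and 9.42 against 9.49 and 9.63, differing by 0.145 (adjusted p = 0.724). The acid-labile subunit gene IGFALS differed by 0.235, the insulin receptor-related receptor gene INSRR by 0.115, IGFBP7 by 0.07, IGFLR1 by 0.09, IGFL1 by 0.045 and IGFBPL1 by 0.03. Of the 9 genes of this list on clusters of their own, 8 were positive and 0 passed, with 0 at an unadjusted p under 0.05. The groups did not overlap for 2 of the 9, IGF2BP3 and IGFALS, both higher, against 21.2% of all clusters.

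Across the 9 lists of the wider pathway, 168 of 190 genes were measured on clusters of their own. None passed limma's test over all clusters, against 0.494% of all 18417 genes, and 25 had an unadjusted p under 0.05 (10 higher, 15 lower), against 11.8%. The median difference over these genes was 0.02, and 0.015 over all genes. Among proteases that open IGFBPs and the inhibitors of those proteases, 3 of 13 had an unadjusted p under 0.05, 1 higher and 2 lower. STC2, stanniocalcin 2, an inhibitor of PAPPA, measured 7.69 and 7.60 against 6.63 and 7.0, differing by -0.83 ± 0.15 (SE), adjusted p = 0.0821. PLAU, the urokinase gene, measured 8.61 and 8.52 against 7.01 and 7.79, differing by -1.165 ± 0.24 (SE), adjusted p = 0.103. In both genes the H1.3-labelled arrays lay below the vector controls, but both were named for the smallest p of the list. Over the 13 genes, groups were apart and higher for 3 and lower for 5, against 21.2% and 19.4% of all clusters.

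Over all 18417 genes on clusters of their own, 45.5% were negative and 11.8% had an unadjusted p under 0.05, with a median difference of 0.015. Of 24 receptor adaptors and negative regulators, 12 were positive and 12 negative, with a median difference of 0.0. CAV1, the gene of the membrane scaffold caveolin 1, differed by 0.455 and GRB10 by -0.695, with adjusted p of 0.171 and 0.319. Of 25 genes of the PI3K-AKT-mTOR arm, 18 were positive and 6 (24.0%) negative, with a median of 0.075. An unadjusted p under 0.05 was found for 4 (16.0%) of the 25, of which 3 were lower. The AKT phosphatase gene PHLPP2 differed by 0.42 and DEPTOR, the gene of an mTOR inhibitor, by -0.675, with adjusted p of 0.244 and 0.287. Of 17 genes of the RAS-MAPK arm, 5 (29.4%) had an unadjusted p under 0.05, of which 3 were lower. They included SPRY1, a feedback inhibitor, at -0.575, and RPS6KA3, the gene of the kinase RSK2, at 0.395, with adjusted p of 0.161 and 0.218.

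FOXO factors are kept out of the nucleus when the receptors signal. The 19 FOXO factors and FOXO targets had a median difference of 0.0, with 9 positive and 9 negative. TXNIP, a thioredoxin inhibitor, measured 8.83 and 6.47 in the vector controls and 11.28 and 10.84 in the H1.3-labelled arrays, differing by 3.41 (adjusted p = 0.0913). BCL2L11, which encodes the pro-apoptotic protein BIM, differed by -0.565 with an adjusted p of 0.124. The signs of TXNIP and BCL2L11 were opposite. Both were named for the smallest p of the list, so groups that do not overlap follow largely from the choice. Over the 19 genes, groups were apart and higher for 5 and lower for 3, against 21.2% and 19.4% of all clusters. An unadjusted p under 0.05 was found for 4 (21.1%), against 11.8% of all genes.

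Beside IGF2R, the 13 genes of mannose 6-phosphate sorting had a median difference of -0.025. Among them, 1 (7.7%, against 11.8% of all genes) had an unadjusted p under 0.05. It was TGFB1, whose latent protein is a ligand of IGF2R, at 0.51 with an adjusted p of 0.210, and the retromer gene VPS26A followed at -0.28. Of 27 lysosomal hydrolases, 17 (63.0%, against 45.5% of all genes) were negative with a median of -0.105, and 5 (18.5%, against 11.8%) had an unadjusted p under 0.05, of which 4 were lower. CTSB, the gene of cathepsin B, measured 11.32 and 11.82 against 10.55 and 10.73, differing by -0.93 ± 0.18 (SE), adjusted p = 0.0925. LIPA, the lysosomal acid lipase gene, differed by 0.465 with an adjusted p of 0.260. Of 22 mRNAs described as bound by IGF2BPs and partner proteins, 14 were positive and 8 negative, with a median of 0.05. Only 1 (4.5%, against 11.8% of all genes) had an unadjusted p under 0.05. CD44, a hyaluronan receptor gene, differed by 0.31 and BTRC, a ubiquitin ligase gene, by 0.245, with adjusted p of 0.409 and 0.516.

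**Figure D5:**
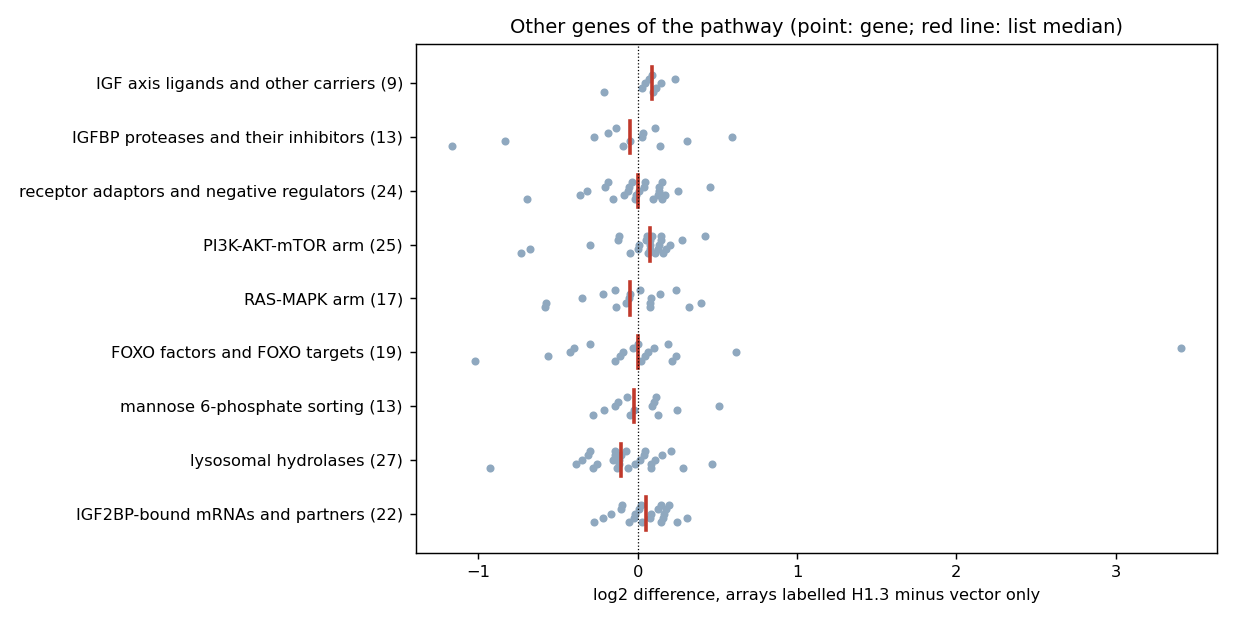
Log2 difference (horizontal axis, H1.3-labelled arrays minus vector only) of each measured gene of the 9 pathway lists (points, with the number of genes in brackets) and the list median (red line). The medians run from -0.105 for lysosomal hydrolases to 0.09 for ligands and other carriers, and the point far to the right is TXNIP at 3.41.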

How the data were processed

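Values are log2 levels as the authors deposited them, in 1 column per array for 33297 transcript clusters (2 decimals). The submitters' processing notes name Affymetrix Expression Console and RMA, which corrects background, equalises arrays and summarises probes; no version is given in the sources used here. Identifiers match a gene array's annotation, although an exon array is named in the series text. Symbols were updated by gene identifier to RefSeq GRCh38.p14 (19429 of 19460 single-symbol clusters matched). The comparison used limma 3.58.1, run in R 4.3.3 (two-sided, no covariate, 2 residual and 5.16 prior degrees of freedom) over the 21214 clusters with a symbol, with Benjamini-Hochberg adjustment over all of them and a threshold of 0.05; every adjusted p is from this fit unless stated. The number of arrays limits the precision: the median SE was 0.13. An exact permutation test of 2 against 2 arrays cannot go below p = 0.333 and was not used. For IGF1R the cluster of highest mean stands for the gene where 1 value is needed, and likewise for other genes. Named genes were all members, H1-3, all ligands and other carriers, and the called genes of each list or else the 2 of smallest p; GRB10 is also the lowest neighbour of IGFBP3. Members and lists were chosen with earlier results of these data known. The steps were tested on simulated data in 2 ways. A first simulation, which took the fitted variance of each cluster as true, gave false calls also with nothing altered. A second, added after that result was seen, drew variances from limma's own fitted prior, so it shares the model's assumption, and it gave fewer false calls. Adjusted p-values may thus be too small where that assumption fails. Alternatives concerned array scaling, variance moderation, dim clusters, which clusters were tested, the threshold, a term for the replicate number, and single arrays left out.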

Additional observations from a re-analysis of the deposited data

How the results depend on the processing

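No member passed in any refit at an adjusted p under 0.05, with IGF1R judged by its cluster of higher mean. The second IGF1R cluster, which had the smaller adjusted p, was not followed in the refits, except in the fit without moderation. With a 1.5-fold minimum beside an unadjusted p under 0.05, 1 member was called, IGFBP2 at -0.835, and the second IGF1R cluster also met that rule. IGF1R, INSR, IGFBP2, IGFBP3, IGFBP4, IGFBP5 and IGF2BP1 kept their sign in every alternative that tested them. IGF2R changed sign when arrays were left out (-0.18 to 0.26), as did the IGFBP6 cluster (-0.09 to 0.06) and IGF2BP2 (-0.175 to 0.235). Over the same fits the range was -0.635 to -0.425 for IGF1R, -0.56 to -0.35 for INSR, -1.18 to -0.49 for IGFBP2, -0.74 to -0.39 for IGFBP3, -0.485 to -0.035 for IGFBP4, 0.075 to 0.565 for IGFBP5 and 0.265 to 0.505 for IGF2BP1. IGF1R, INSR and IGF2BP1, whose means lie below the median level, are not tested when dim clusters are left out, nor is the IGFBP6 cluster when shared clusters are.

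Over the whole table, 107 clusters were called. The count was 67 after a second quantile normalization, 50 with arrays at one median, 245 with a robust intensity trend, 0 without moderation (9 clusters with no spread left out, 1643 at an unadjusted p under 0.05), 25 with only clusters at or above the median level, 4 with all transcript clusters, 311 when the adjusted threshold was 0.10 and 683 when a 1.5-fold minimum went with an unadjusted p under 0.05. Leaving out each array gave 0 to 0 limma calls (1292 to 2367 clusters at an unadjusted p under 0.05), on the assumption that a lone array varies as the remaining pair does. The cause of these shifts was not tested. With the replicate block, 0 clusters and 0 members were called in limma (2195 clusters and 5 members at an unadjusted p under 0.05). The replicate 1 minus 2 differences in the vector and H1.3 groups had a correlation of 0.06 across clusters, and no label names a common batch; the arrays share only a number.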

Other observations

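The let-7 microRNAs, which repress IGF2BP1 among other oncofetal mRNAs, were looked at after the values of IGF2BP1 were seen. The array carries precursor genes, not mature microRNAs, and 9 let-7 precursor genes had clusters of their own. Their mature 5p arms share the seed (bases 2 to 8, in capitals), as in these RefSeq sequences (GRCh38.p14) of some of the members described here.
let-7f-5p: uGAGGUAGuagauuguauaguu
let-7g-5p: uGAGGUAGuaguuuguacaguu
let-7i-5p: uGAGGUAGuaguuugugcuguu

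MIRLET7G measured 5.02 and 4.93 in the vector controls and 4.51 and 4.72 in the H1.3-labelled arrays, differing by -0.36 ± 0.13 (SE), adjusted p = 0.327. MIRLET7F1 measured 6.08 and 5.93 against 5.79 and 5.47, differing by -0.375 ± 0.15 (SE), adjusted p = 0.385. In both, the H1.3-labelled arrays were lower, and all 4 arrays lay below the median level of the named clusters. MIRLET7A1 and MIRLET7D lie close to MIRLET7F1 on chromosome 9. They differed by -0.135 and 0.06, and their groups overlapped. The counts below treat these neighbours as separate genes. MIRLET7I measured 7.37 and 6.93 against 7.61 and 6.96, and its groups overlapped. Of the 9 precursor genes, 5 were negative and 4 positive, with a median difference of -0.115. None passed limma's test over all clusters and 2 had an unadjusted p under 0.05, against 11.5% of all clusters. The groups were apart and lower for 4 of the 9, against 19.4% of all clusters. LIN28B, the gene of a protein that blocks let-7 maturation, differed by -0.055. Whether let-7 or LIN28B has a part in the difference of IGF2BP1 was not tested.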
